A study of Homo sapiens with 12 samples.

Results

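Transcripts of 6 genes that encode the parts of 2 ligand and receptor systems, apelin and CXCL12, were followed through human pluripotent stem cell colonies treated with WNT3A and FGF8. The genes were taken by symbol, as APLNR, APELA, APLN, CXCR4, CXCL12 and ACKR3, from the 35940 symbols of the deposited count table. Each of them stood on a single Ensembl identifier. The cells were ESI017, a human embryonic stem cell line, carrying a SOX2::mCitrine reporter, and were grown as colonies on micropatterned coverslips. All treated colonies received FGF8 at 200 ng/ml with WNT3A at 100, 300 or 1000 ng/ml for 3 days, and were then dissociated and sorted into a SOX2-negative and a SOX2-positive fraction. The 12 libraries are 2 of SOX2-negative and 2 of SOX2-positive cells at 100 ng/ml, 1 of each at 300 ng/ml, 2 of each at 1000 ng/ml, and 2 of control colonies. Control colonies were kept in N2B27 medium alone for 3 days and had neither WNT3A nor FGF8, so a difference from control covers both factors. The labels give no gate for the control libraries. All libraries come from 1 reporter line, and replicate 2 was a biological repeat that left out 300 ng/ml.

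APLNR is the G protein-coupled receptor shared by 2 peptide hormones, apelin (encoded by APLN) and the product of APELA, also called ELABELA or Toddler. In zebrafish embryos, Toddler and its receptor guide mesendodermal cells inwards at gastrulation, and in human pluripotent cells APELA is known as an abundantly expressed secreted peptide gene. CXCR4 is the signalling receptor of the chemokine CXCL12 and is widely used as a surface marker of definitive endoderm. ACKR3 binds the same chemokine, internalises it and signals mainly through arrestins rather than G proteins. In zebrafish gastrulae, Cxcl12 from mesoderm and Cxcr4 on endoderm hold the endoderm to the mesoderm.

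The coding sequences of the APLNR ligands are printed because they show how short the precursors of these peptides are and where the carboxy-terminal peptides sit in them. Both were read from GENCODE 29 transcripts on GRCh38, and capitals mark the codons of those peptides, the last 32 codons of APELA and the last 13 codons of APLN.
APELA: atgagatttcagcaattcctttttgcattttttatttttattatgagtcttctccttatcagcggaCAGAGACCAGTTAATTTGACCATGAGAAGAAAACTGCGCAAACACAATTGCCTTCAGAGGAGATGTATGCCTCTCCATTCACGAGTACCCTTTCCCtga
APLN: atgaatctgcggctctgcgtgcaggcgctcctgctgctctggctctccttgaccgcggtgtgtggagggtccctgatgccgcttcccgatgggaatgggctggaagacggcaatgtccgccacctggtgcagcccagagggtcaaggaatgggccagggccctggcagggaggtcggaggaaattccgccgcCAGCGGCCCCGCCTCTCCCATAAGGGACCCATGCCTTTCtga
The APELA reading frame has 54 codons before the stop and that of APLN has 77. APELA lies at chr4:164877004-164898965 on the plus strand and APLN at chrX:129645259-129654937 on the minus strand. The receptor gene APLNR lies at chr11:57233577-57237314 and CXCR4 at chr2:136114349-136118165, both on the minus strand. CXCL12 lies at chr10:44370165-44386493 on the minus strand and ACKR3 at chr2:236567787-236582358 on the plus strand. All 6 are protein-coding genes, and GENCODE 29 has no other gene overlapping any of them.

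The libraries held 16474799 to 28078923 estimated counts, and levels are given as counts per 1000000 (CPM) of each library's TMM-adjusted total. SOX2, the gene of the sort, was at 1.85 to 5.98 CPM in the 4 SOX2-negative libraries at 100 and 1000 ng/ml, against 418 to 467 CPM in the 4 SOX2-positive libraries and 652 to 676 CPM in control. The SOX2-negative cells carried transcripts of definitive endoderm (SOX17, FOXA2, GATA4 and 6 others), summing to 994.6 to 1849 CPM, against 23.5 to 84.2 CPM in SOX2-positive and 53.0 to 56.5 CPM in control libraries. In control, PRDM1 and HHEX averaged 30.2 and 23.9 CPM, while SOX17 had no count and FOXA2 averaged 0.0762 CPM. In SOX2-positive libraries at 100 and 1000 ng/ml, PRDM1 and HHEX averaged 1.90 and 6.81 CPM, and SOX17 and FOXA2 4.15 and 4.63 CPM. A list of 9 lateral and cardiac mesoderm genes holds TBX3, HAND1 and, shared with the endoderm list, GATA4. Their sum was 269 to 732 CPM in SOX2-negative, 8.57 to 26.8 CPM in SOX2-positive and 73.3 to 89.7 CPM in control libraries. BMP4 of this list averaged 57.6 CPM in control, where TBX20 and NKX2-5 had no count. At 100 and 1000 ng/ml BMP4 averaged 38.8 CPM in SOX2-negative and 5.36 CPM in SOX2-positive libraries. No other gene of the list had a higher mean in control than in those SOX2-negative libraries. The 7 primitive streak genes, which share EOMES with the endoderm list, summed to 209.7 to 667.4 CPM in SOX2-negative libraries. Their sum was 13.3 to 140.1 CPM in SOX2-positive and 9.04 to 11.2 CPM in control libraries. In bulk libraries such as these, a higher number of cells of a type and more RNA per cell cannot be told apart. Among SOX2-negative libraries, 1000 ng/ml replicate 2 had the lowest endoderm sum, 994.6 CPM against 1537 to 1849 CPM in the other 4. The 100 ng/ml replicate 2 library stood apart on the second principal component of log2 CPM, at 48.0 against -12.9 to 0.28 for the other SOX2-negative libraries.

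The 3 receptor genes were higher in the SOX2-negative than in the SOX2-positive cells, while APELA and CXCL12 were lower, and APLN did not pass the test. The gates were compared as the average of 100 and 1000 ng/ml with edgeR's quasi-likelihood test, adjusted over 17047 genes by the Benjamini-Hochberg method and called at an adjusted p under 0.05. Of the 6 genes, 3 were called higher and 2 lower. Over all genes tested, 12.9% were called higher, 11.1% lower and 24% in either direction. Each of the 5 calls held when any 1 of the 8 treated libraries in the comparison was left out and under all 8 other settings tried.

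APLNR, the apelin receptor, had 313 and 386 CPM at 100 ng/ml, 434 CPM at 300 ng/ml and 687 and 669.7 CPM at 1000 ng/ml in SOX2-negative libraries. In SOX2-positive libraries it had 8.08 and 3.71 CPM at 100 ng/ml, 11.2 CPM at 300 ng/ml and 17.7 and 17.1 CPM at 1000 ng/ml, and the 2 control libraries had 0.559 and 1.06 CPM. The 3 kinds of library did not overlap, with control lowest and every SOX2-positive library between control and SOX2-negative. APLNR averaged 514 ± 193 CPM in SOX2-negative and 11.7 ± 6.90 CPM in SOX2-positive libraries (SD, n = 4 each, 2 doses together). The log2 fold change was 5.59 ± 0.272 (SE), or 48.1-fold higher in SOX2-negative cells (edgeR adjusted p = 6.5e-07). Within a single dose and repeat, the SOX2-negative level was 38.7 to 39.2 times the SOX2-positive level in 4 of the 5 pairs. The exception was 100 ng/ml replicate 2, with a ratio of 104, where the SOX2-positive library had the lowest APLNR level of that gate.

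CXCR4, the signalling receptor of CXCL12, had 82.9 and 84.5 CPM at 100 ng/ml, 103 CPM at 300 ng/ml and 104 and 71.9 CPM at 1000 ng/ml in SOX2-negative libraries. It had 1.39 and 1.28 CPM at 100 ng/ml, 1.28 CPM at 300 ng/ml and 3.01 and 2.90 CPM at 1000 ng/ml in SOX2-positive libraries, against 3.66 and 7.25 CPM in control. Unlike APLNR, CXCR4 was lowest in the SOX2-positive libraries, every one of which was below both controls. The SOX2-negative mean was 85.8 ± 13.4 CPM and the SOX2-positive mean 2.14 ± 0.936 CPM (SD, n = 4 each). CXCR4 was 43.2-fold higher in SOX2-negative cells, a log2 fold change of 5.43 ± 0.259 (SE, edgeR adjusted p = 5.7e-07), and the 5 pairs of a dose and repeat had ratios of 24.8 to 80.0.

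ACKR3, the scavenging receptor of CXCL12, had a smaller difference. Its SOX2-negative levels were 24.9 and 12.9 CPM at 100 ng/ml, 20.1 CPM at 300 ng/ml and 14.5 and 5.56 CPM at 1000 ng/ml. Its SOX2-positive levels were 3.72 and 2.97 CPM at 100 ng/ml, 1.81 CPM at 300 ng/ml and 1.59 and 2.71 CPM at 1000 ng/ml, and control had 3.71 and 4.17 CPM. The lowest SOX2-negative library, 1000 ng/ml replicate 2, was still above every SOX2-positive and control library. ACKR3 averaged 14.5 ± 8.0 CPM in SOX2-negative and 2.75 ± 0.881 CPM in SOX2-positive libraries (SD, n = 4 each), a 5.09-fold difference (log2 fold change 2.35 ± 0.355, edgeR adjusted p = 0.00076). The ratio in the 5 pairs ran from 2.05 at 1000 ng/ml replicate 2 to 11.1 at 300 ng/ml.

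**Figure D1:**
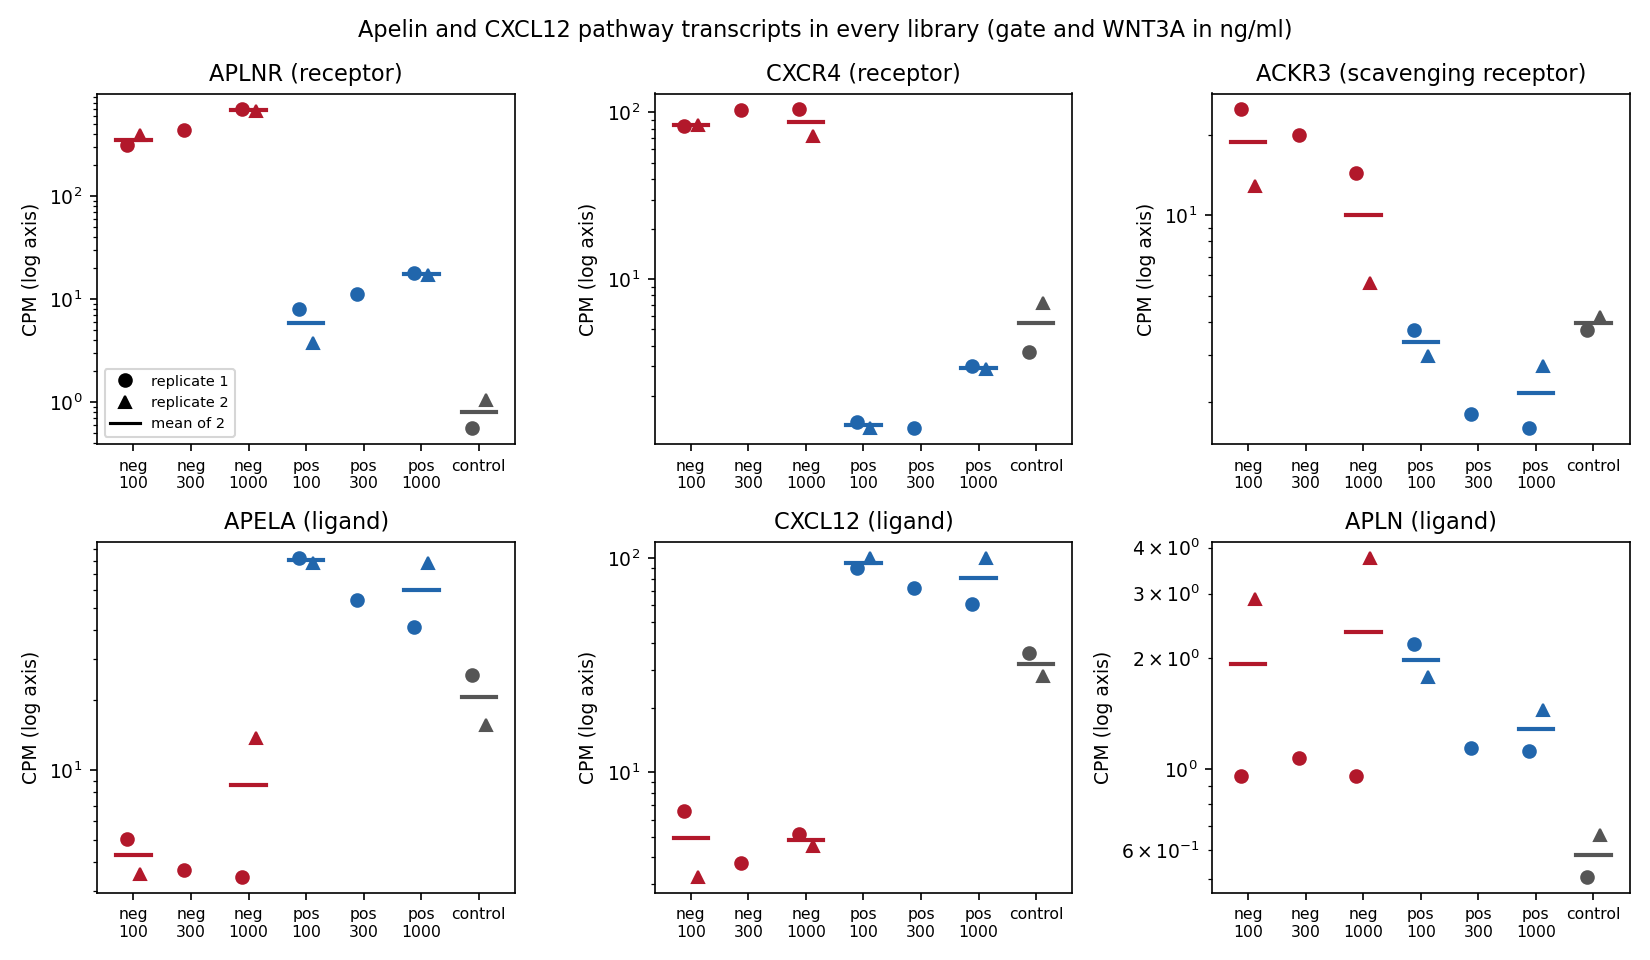
CPM (log axis) of the 6 genes in each of the 12 libraries, with SOX2-negative (neg, red), SOX2-positive (pos, blue) and control (grey) libraries from left to right and WNT3A in ng/ml under each; circles are replicate 1, triangles replicate 2 and bars the mean of 2. The 5 red points of APLNR, CXCR4 and ACKR3 are above all blue points, the 5 red points of APELA and CXCL12 are below all blue points, and the APLN points of the 2 gates overlap.

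The ligand genes APELA and CXCL12 had the opposite pattern. APELA, which encodes the embryonic APLNR ligand, had 5.03 and 3.55 CPM at 100 ng/ml, 3.69 CPM at 300 ng/ml and 3.46 and 13.8 CPM at 1000 ng/ml in SOX2-negative libraries. It had 82.2 and 78.4 CPM at 100 ng/ml, 54.2 CPM at 300 ng/ml and 41.6 and 78.1 CPM at 1000 ng/ml in SOX2-positive libraries, against 25.7 and 15.6 CPM in control. Every SOX2-negative library was below both controls and every SOX2-positive library was above them. APELA averaged 6.46 ± 4.95 CPM in SOX2-negative and 70.1 ± 19.1 CPM in SOX2-positive libraries (SD, n = 4 each) and was 11.4-fold lower in SOX2-negative cells (log2 fold change -3.51 ± 0.405, edgeR adjusted p = 0.00013). The library at 13.8 CPM, 1000 ng/ml replicate 2, is the one with the lowest endoderm sum and the lowest ACKR3 of its gate. It also had the highest lateral and cardiac mesoderm sum of its gate, 731.8 CPM. Its summed level of 7 pluripotency genes was the lowest of its gate, 690.2 CPM against 1044 to 1258 CPM in the other 4 SOX2-negative libraries. The part of any of these sums in the APELA value was not tested. Without it APELA was 18.3-fold lower in SOX2-negative cells (log2 fold change -4.19, edgeR adjusted p = 7.8e-05).

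CXCL12, the chemokine bound by CXCR4 and ACKR3, had 6.58 and 3.25 CPM at 100 ng/ml, 3.75 CPM at 300 ng/ml and 5.16 and 4.53 CPM at 1000 ng/ml in SOX2-negative libraries. It had 90.1 and 99.6 CPM at 100 ng/ml, 72.7 CPM at 300 ng/ml and 60.9 and 100.0 CPM at 1000 ng/ml in SOX2-positive libraries, and 36.0 and 28.3 CPM in control. The order of the libraries was that of APELA, with SOX2-negative lowest, control in between and SOX2-positive highest, without overlap. The summed level of the 7 pluripotency genes had the same order, at 690.2 to 1258 CPM in SOX2-negative, 2789 to 3752 CPM in SOX2-positive and 1662 to 1772 CPM in control libraries. SOX2 is among the 7, so part of this gate difference was fixed by the sort. The means of DPPA4 had this order (170, 781 and 375 CPM), as had POU5F1 and NANOG, whose SOX2-negative and control means were close. SOX2, PRDM14 and, narrowly, ZFP42 were highest in control, and TDGF1 was lowest there (375, 386 and 17.9 CPM). The part of these genes in the levels of the 2 ligand genes was not tested. CXCL12 averaged 4.88 ± 1.39 CPM in SOX2-negative and 87.7 ± 18.4 CPM in SOX2-positive libraries (SD, n = 4 each). It was 18-fold lower in SOX2-negative cells (log2 fold change -4.17 ± 0.264, edgeR adjusted p = 2.7e-06), and in the 5 pairs the SOX2-positive level was 11.8 to 30.7 times the SOX2-negative one, against 5.66 to 22.1 times for APELA.

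APLN, the gene of apelin itself, was low in every library. It had 0.957 and 2.90 CPM at 100 ng/ml, 1.07 CPM at 300 ng/ml and 0.957 and 3.75 CPM at 1000 ng/ml in SOX2-negative libraries, against 2.18 and 1.77, 1.14, and 1.12 and 1.45 CPM at the same doses in SOX2-positive libraries. The 2 control libraries had 0.508 and 0.659 CPM, below all 10 treated libraries. The gates overlapped, and the difference did not pass the test (log2 fold change 0.43 ± 0.533, edgeR adjusted p = 0.6). In SOX2-negative cells both replicate 2 libraries had more APLN than any replicate 1 library, and the sign of the gate difference turned when either was left out, to -0.08 without 100 ng/ml replicate 2 and to -0.24 without 1000 ng/ml replicate 2.

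Taking all 5 libraries of each gate, the SOX2-negative values were all above the SOX2-positive ones for APLNR, CXCR4 and ACKR3, as they were for 12.6% of the genes tested. They were all below for APELA and CXCL12, as for 12% of the genes tested.

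**Figure D2:**
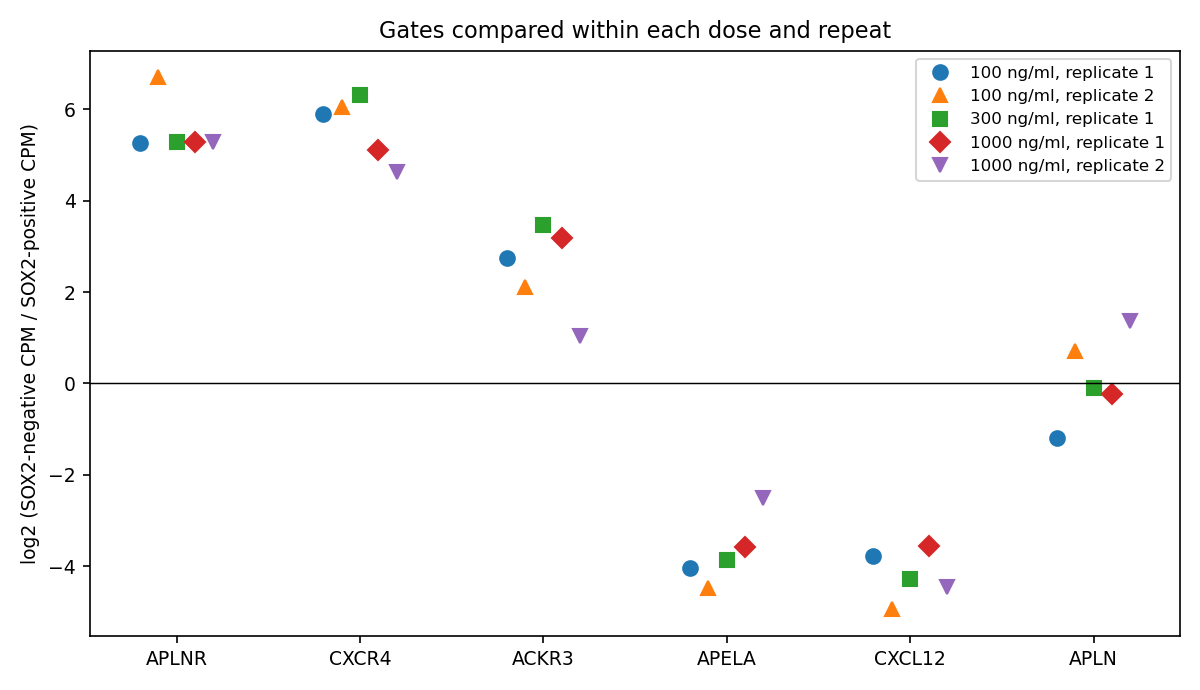
Log2 ratio of the SOX2-negative to the SOX2-positive CPM of each gene, for the 5 pairs of libraries that share a WNT3A dose and replicate number; the line at 0 marks equal levels. All 5 points are above 0 for APLNR, CXCR4 and ACKR3 and below 0 for APELA and CXCL12, while APLN has 2 points above and 3 below.

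The 6 genes differ in transcript length, so levels were compared between genes as CPM per kilobase of exon (union of GENCODE 29 exons). In SOX2-negative libraries APLNR led with 83.7 to 184 CPM per kb, followed by CXCR4 at 32.3 to 46.8 and ACKR3 at 2.46 to 11.1 CPM per kb. APELA had 1.12 to 4.47, CXCL12 0.534 to 1.08 and APLN 0.299 to 1.17 CPM per kb. APELA was above CXCL12 and APLN in every SOX2-negative library, while the range of APLN overlapped those of APELA and CXCL12. In 1000 ng/ml replicate 2 APELA, at 4.47 CPM per kb, was above ACKR3, at 2.46, while in the other 4 SOX2-negative libraries it was below. In SOX2-positive libraries APELA had 13.5 to 26.6 and CXCL12 10.0 to 16.4 CPM per kb, above all 3 receptor genes, and APLNR, CXCR4, ACKR3 and APLN all stayed at or under 4.75 CPM per kb. Control libraries also had the 2 ligand genes on top, with APELA at 8.31 and 5.05 and CXCL12 at 5.93 and 4.65 CPM per kb.

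APLNR with APELA, and CXCR4 with CXCL12, thus stood in opposite ratios in the 2 gates. This did not hold for APLN, since APLNR was above APLN per kilobase in every library of both gates. In SOX2-positive libraries APLNR had 0.993 to 4.75 and APLN 0.349 to 0.681 CPM per kb. The ratio of APLNR to APELA per kilobase was 40.1 to 164 in the 5 SOX2-negative libraries, 0.0391 to 0.352 in the 5 SOX2-positive libraries and 0.018 and 0.0563 in control. For CXCR4 to CXCL12 it was 34.4 to 74.9 in SOX2-negative, 0.0351 to 0.135 in SOX2-positive and 0.277 and 0.701 in control libraries. The signalling receptor also stood higher over the scavenging receptor in every SOX2-negative library, with CXCR4 at 3.37 to 13.1 times ACKR3, against 0.379 to 1.92 times in SOX2-positive and 1.00 and 1.76 times in control libraries. Of the 2 APLNR ligands, APELA was the more abundant everywhere, at 1.27 to 5.45 times APLN in SOX2-negative, 38.6 to 56.0 times in SOX2-positive and 52.4 and 24.6 times in control libraries. Ratios between genes carry the error of the exon lengths, which stand for whatever transcripts the cells use, and they were not tested.

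**Figure D3:**
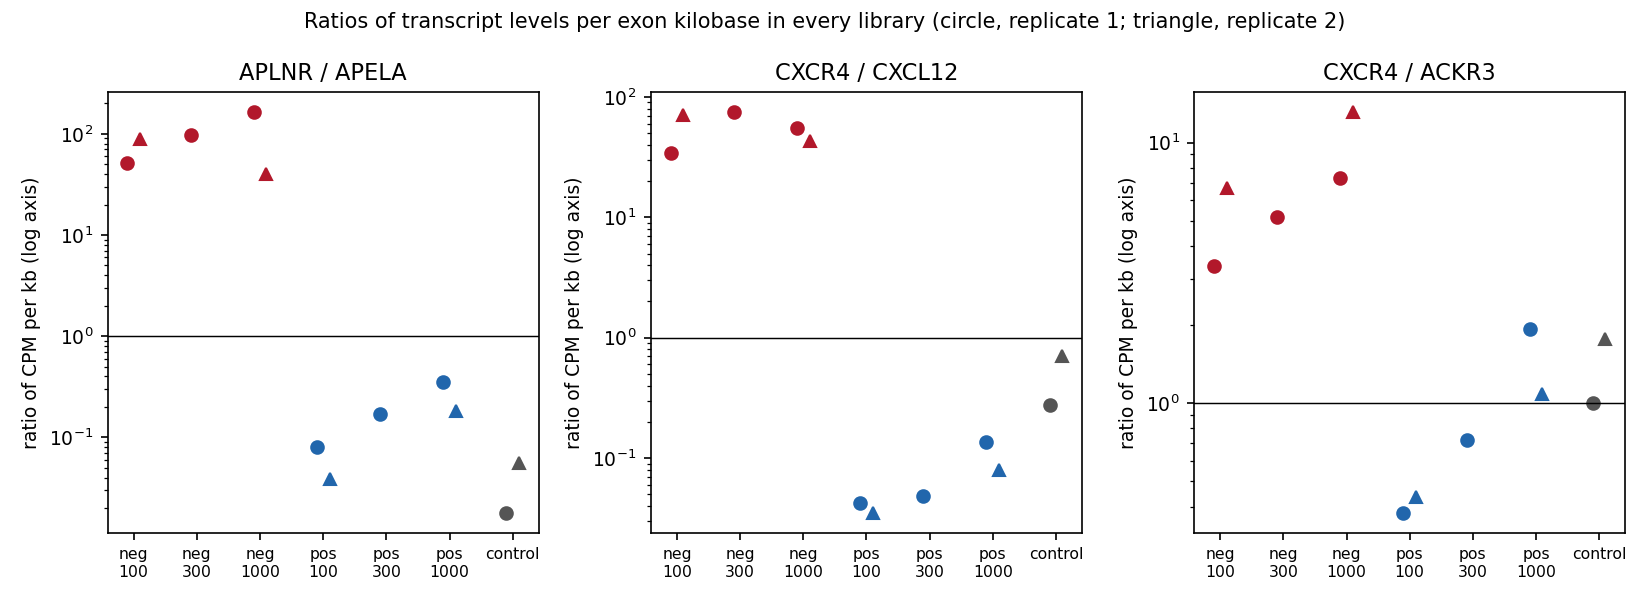
Ratios of CPM per exon kilobase (log axis) in each library for APLNR over APELA, CXCR4 over CXCL12 and CXCR4 over ACKR3, with SOX2-negative (neg), SOX2-positive (pos) and control libraries from left to right and WNT3A in ng/ml; the line marks a ratio of 1. The receptor over ligand ratios are 34.4 or more in every SOX2-negative library and 0.701 or less in all others.

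Against control, the SOX2-negative cells had more APLNR and CXCR4 and less CXCL12 at both doses that were repeated. At 100 ng/ml 3 of the 6 genes were called higher and 2 lower, where 20.6% of the 17047 genes were called in either direction, 11.9% higher and 8.66% lower. APLNR had a log2 fold change of 8.70 ± 0.460 (edgeR adjusted p = 5.9e-06), CXCR4 of 3.93 ± 0.333 (adjusted p = 3.8e-05) and CXCL12 of -2.72 ± 0.356 (adjusted p = 0.00048). ACKR3 was higher at 2.26 ± 0.492 (edgeR adjusted p = 0.0094) and APELA lower at -2.27 ± 0.559 (adjusted p = 0.017), but both calls were lost when certain single libraries were left out. Without control replicate 1 or control replicate 2 the ACKR3 call was lost (adjusted p = 0.081 and 0.067). The APELA call was lost without SOX2-negative replicate 2 or control replicate 1 (adjusted p = 0.087 and 0.11). APLN had 1.72 ± 0.792 (edgeR adjusted p = 0.15), and passed only without SOX2-negative replicate 1 (adjusted p = 0.046).

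At 1000 ng/ml 2 of the 6 genes were called higher and 1 lower in SOX2-negative cells against control, with 17.8% of all genes called, 10.7% higher and 7.1% lower. APLNR had a log2 fold change of 9.66 ± 0.474 (edgeR adjusted p = 3.7e-06), CXCR4 of 4.00 ± 0.334 (adjusted p = 2.8e-05) and CXCL12 of -2.73 ± 0.355 (adjusted p = 0.00042). ACKR3 had 1.34 ± 0.483 (edgeR adjusted p = 0.085) and APELA -1.24 ± 0.530 (adjusted p = 0.14), and neither passed. Both passed without SOX2-negative replicate 2, the library with 13.8 CPM of APELA and 5.56 CPM of ACKR3, at 1.86 for ACKR3 (edgeR adjusted p = 0.029) and -2.59 for APELA (adjusted p = 0.011). APLN had 2.00 ± 0.793 (edgeR adjusted p = 0.11).

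The SOX2-positive cells, which had been through the same treatment, also differed from control. The number of genes called was lower than for SOX2-negative cells at both doses, but at 100 ng/ml the order turned when only the groups compared were fitted, with 2841 genes called for SOX2-positive and 1798 for SOX2-negative cells. At 100 ng/ml 2 of the 6 genes were called higher and 1 lower, with 4.22% of all genes called, 2.69% higher and 1.53% lower. At 1000 ng/ml 2 were called higher and 0 lower, with 5.6% of all genes called, 3.63% higher and 1.97% lower. APLNR was 6.99-fold above control at 100 ng/ml (log2 fold change 2.81 ± 0.405, edgeR adjusted p = 0.0047) and 20.8-fold above it at 1000 ng/ml (4.38 ± 0.407, adjusted p = 0.00052). These APLNR calls held with any single library left out (adjusted p at most 0.049 at 100 ng/ml and 0.011 at 1000 ng/ml). CXCR4 was 4.12-fold lower than in control at 100 ng/ml (-2.04 ± 0.350, edgeR adjusted p = 0.0093), a call lost without SOX2-positive replicate 1, SOX2-positive replicate 2 or control replicate 2 (adjusted p = 0.088, 0.095 and 0.11). At 1000 ng/ml CXCR4 had -0.90 ± 0.328 (edgeR adjusted p = 0.16).

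CXCL12 was higher in SOX2-positive cells than in control, at 1.56 ± 0.329 at 100 ng/ml (edgeR adjusted p = 0.024) and 1.33 ± 0.328 at 1000 ng/ml (adjusted p = 0.042). Each of these calls was lost when any 1 of its 4 libraries was left out, with adjusted p of 0.11 to 0.27 at 100 ng/ml and 0.059 to 0.34 at 1000 ng/ml. APELA had 1.96 ± 0.529 at 100 ng/ml (edgeR adjusted p = 0.067) and 1.54 ± 0.523 at 1000 ng/ml (adjusted p = 0.13). It passed by DESeq2 at both doses (adjusted p = 0.0029 and 0.03). ACKR3 had -0.24 ± 0.488 (edgeR adjusted p = 0.87) and -0.86 ± 0.502 (adjusted p = 0.42), and APLN 1.74 ± 0.792 (adjusted p = 0.3) and 1.13 ± 0.794 (adjusted p = 0.52). All 4 comparisons use the same 2 control libraries, so their values are not independent of each other.

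**Figure D4:**
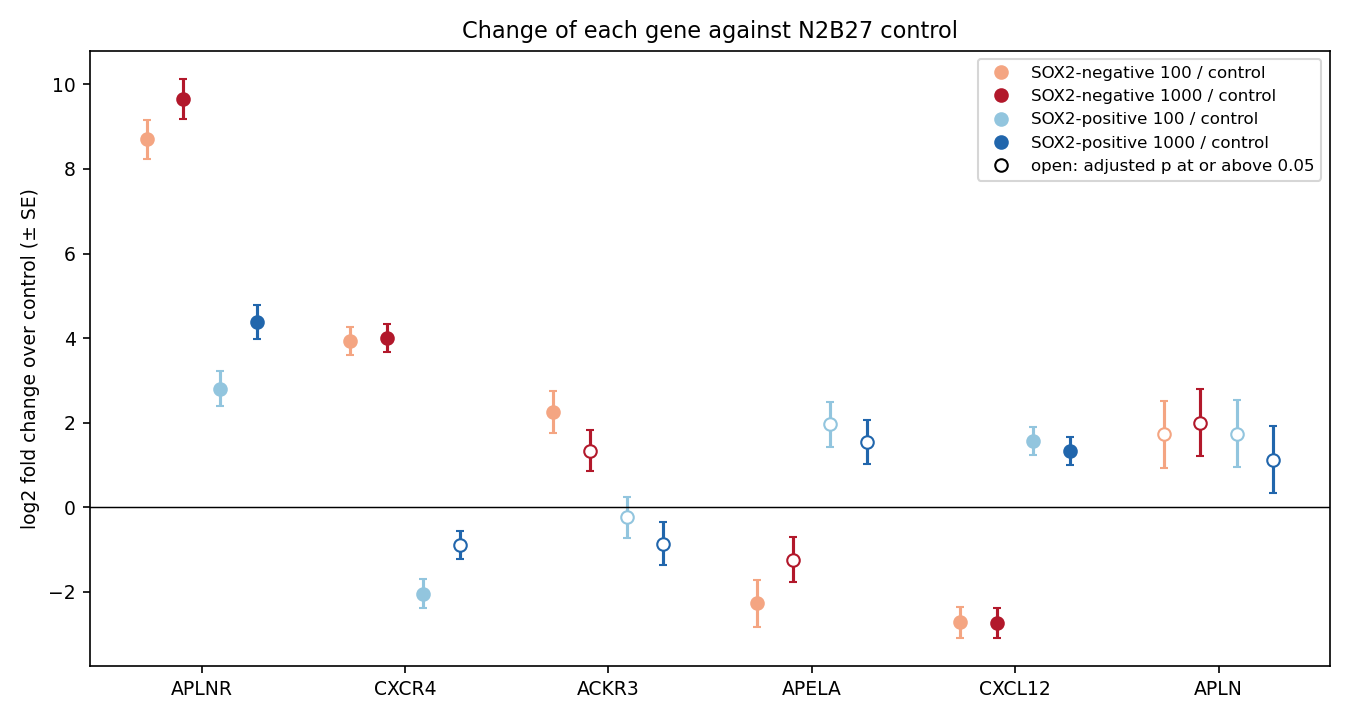
Log2 fold change over control (± SE, edgeR) of each gene in SOX2-negative and SOX2-positive cells at 100 and 1000 ng/ml WNT3A; filled points have an adjusted p under 0.05 and open points do not. APLNR is above control in all 4 comparisons, at 2.81 to 9.66, and CXCR4 and CXCL12 have opposite signs in the 2 gates, though CXCR4 in SOX2-positive cells at 1000 ng/ml did not pass.

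The WNT3A dose was compared within each gate, and no gene passed in either. With edgeR 0 of 17047 genes (0%) were called between 1000 and 100 ng/ml in SOX2-negative cells, where 3107 had an unadjusted p under 0.05 and DESeq2 called 411 and limma 0. In SOX2-positive cells edgeR called 0 genes (0%), with 293 at an unadjusted p under 0.05, 5 by DESeq2 and 0 by limma. None of the 6 genes was called by edgeR in either gate. The SOX2-negative count rested on 1 library, since edgeR called 5739 genes without SOX2-negative 100 ng/ml replicate 1, which leaves the replicate that stood apart on the second principal component as the only library of that dose. None of the 6 genes was among them.

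APLNR had more transcript at the higher dose in both gates. It averaged 349 ± 51.4 CPM at 100 ng/ml and 678 ± 12.3 CPM at 1000 ng/ml in SOX2-negative libraries (SD, n = 2 each), a log2 difference of 0.96 ± 0.315 (unadjusted p = 0.012, edgeR adjusted p = 0.25). In SOX2-positive libraries the averages were 5.90 ± 3.09 CPM at 100 ng/ml and 17.4 ± 0.453 CPM at 1000 ng/ml, a log2 difference of 1.57 ± 0.338 (unadjusted p = 0.00078, edgeR adjusted p = 1, DESeq2 adjusted p = 0.0091). Within a repeat, the level at 1000 ng/ml was 2.20 and 1.74 times that at 100 ng/ml in SOX2-negative cells and 2.20 and 4.61 times in SOX2-positive cells, and both 300 ng/ml libraries lay between their neighbours. A slope on log10 dose over the 3 doses, chosen after the data had been seen, gave 0.96 ± 0.278 per 10-fold dose in SOX2-negative cells (edgeR adjusted p = 0.13, 0.188% of genes called) and 1.56 ± 0.305 in SOX2-positive cells (adjusted p = 1, 0.00587% called). The dose effect on APLNR did not pass a test of its difference between the gates (SOX2-negative minus SOX2-positive -0.61 ± 0.456, edgeR adjusted p = 0.57).

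CXCR4 had similar levels at both doses in SOX2-negative libraries, 83.7 ± 1.16 CPM at 100 ng/ml and 88.0 ± 22.8 CPM at 1000 ng/ml (SD, n = 2 each; log2 difference 0.07 ± 0.291, edgeR adjusted p = 0.9). In SOX2-positive libraries it had 1.33 ± 0.0780 CPM at 100 ng/ml and 2.95 ± 0.0783 CPM at 1000 ng/ml, with ratios of 2.17 and 2.27 within a repeat (log2 difference 1.14 ± 0.362, unadjusted p = 0.0095, edgeR adjusted p = 1). ACKR3 went the other way in SOX2-negative libraries, at 18.9 ± 8.55 CPM at 100 ng/ml and 10.0 ± 6.30 CPM at 1000 ng/ml, with ratios of 0.580 and 0.433 within a repeat (log2 difference -0.92 ± 0.470, edgeR adjusted p = 0.3). APELA, CXCL12 and APLN had log2 dose differences between -0.62 and 1.03 in the 2 gates, and the highest, APELA in SOX2-negative cells, turned to -0.30 without 1000 ng/ml replicate 2. For the difference of the dose effect between gates, edgeR called 0 genes (0%), with 1349 at an unadjusted p under 0.05, 16 by DESeq2 and 0 by limma, and CXCR4 was the only one of the 6 among the 1349 (-1.07 ± 0.464, edgeR adjusted p = 0.53).

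**Figure D5:**
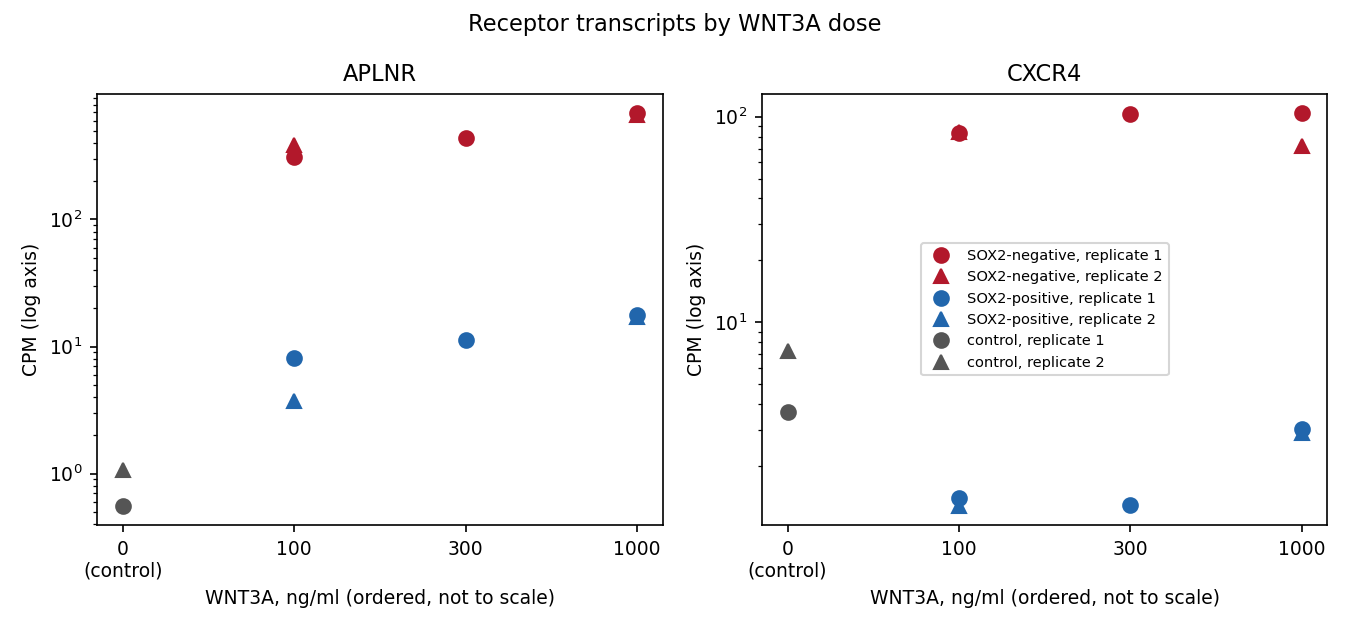
CPM (log axis) of APLNR and CXCR4 by WNT3A dose in ng/ml (doses ordered, not to scale; control at 0 had no FGF8 either) in SOX2-negative (red), SOX2-positive (blue) and control (grey) libraries; circles are replicate 1 and triangles replicate 2. APLNR is highest at 1000 ng/ml in both gates, while CXCR4 lies between 71.9 and 104 CPM at all doses in SOX2-negative cells.

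Of 11 genes listed for processing, degradation or effectors of the apelin system, AGTR1 and AGTRAP among them, 10 were tested. In SOX2-negative cells 2 were called higher and 2 lower, beside 12.9% higher and 11.1% lower over all genes. Their median log2 fold change was 0.29, against 0.0068 over all genes. Counts so close to the share over all genes are no result about the list. FURIN, a proprotein convertase that cuts many precursor proteins, averaged 179 ± 18 CPM in SOX2-negative and 87.1 ± 24.9 CPM in SOX2-positive libraries (SD, n = 4 each, edgeR adjusted p = 0.0014). PCSK6, another convertase, averaged 9.87 ± 1.92 CPM in SOX2-negative and 5.17 ± 1.24 CPM in SOX2-positive libraries (adjusted p = 0.021 by edgeR). PCSK1, a convertase of neuroendocrine cells, and KLKB1, plasma prekallikrein, were lower in SOX2-negative cells but averaged at most 1.84 CPM in either gate (edgeR adjusted p = 0.014 and 0.032). Leaving out 1 library ended the call of PCSK6 in 4 of 8 cases, of KLKB1 in 5 of 8 and of PCSK1 in 1 of 8, while FURIN passed in all 8.

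Of 18 genes for other ligands, binding proteins and proteases of CXCL12 and ACKR3, 16 were tested, with 3 higher and 4 lower (12.9% and 11.1% of all genes) and a median of -0.59. MMP14, a membrane metalloproteinase able to cleave CXCL12, averaged 382 ± 74.3 CPM in SOX2-negative and 82.4 ± 12.2 CPM in SOX2-positive libraries (SD, n = 4 each, log2 fold change 2.21 ± 0.187, edgeR adjusted p = 1.5e-05). RAMP3, a partner protein of adrenomedullin receptors, had no count in the 4 SOX2-negative libraries and 0.551 CPM over the 4 SOX2-positive ones, at least 15.3-fold lower against a floor of 3 counts over the SOX2-negative libraries (edgeR adjusted p = 0.0099). RAMP1, a partner of the same receptor family, averaged 1.44 ± 1.05 CPM in SOX2-negative and 0.115 ± 0.131 CPM in SOX2-positive libraries (edgeR adjusted p = 0.024). MMP9, a secreted metalloproteinase, averaged 0.251 ± 0.189 CPM in SOX2-negative and 1.27 ± 0.898 CPM in SOX2-positive libraries (adjusted p = 0.041 by edgeR). Both were low, and leaving out 1 library ended the call of RAMP1 in 4 of 8 cases and that of MMP9 in 5 of 8. The RAMP1 call was also lost with 3 doses averaged, and the MMP9 call with only the groups compared and with identifiers apart.

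All 26 genes of G protein signalling and desensitisation were tested, with 7 higher and 2 lower (12.9% and 11.1% of all genes) and a median of 0.37. GRK5, a kinase that phosphorylates active receptors, averaged 24.4 ± 11.9 CPM in SOX2-negative and 2.94 ± 0.855 CPM in SOX2-positive libraries (log2 fold change 2.98 ± 0.264, edgeR adjusted p = 2.1e-05). RGS5, which speeds the switching off of G proteins, averaged 122 ± 114 CPM in SOX2-negative and 12.1 ± 3.15 CPM in SOX2-positive libraries (2.96 ± 0.288, adjusted p = 3.9e-05 by edgeR). The 2 lower genes were GNAO1, a G protein alpha subunit abundant in neurons, at 12.7 ± 5.36 CPM in SOX2-negative against 47.6 ± 10.6 CPM in SOX2-positive libraries, and GRK3, at 36.9 ± 8.66 CPM in SOX2-negative against 74.6 ± 4.47 CPM in SOX2-positive libraries (edgeR adjusted p = 4.3e-05 and 0.0014).

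The other chemokine genes were at low levels. Of 23 further chemokine receptor genes 11 were tested, with 1 higher and 1 lower (12.9% and 11.1% of all genes) and a median of -0.015. Their summed level was 8.38 to 11.01 CPM in 4 SOX2-negative libraries and 37.2 CPM in the other, 100 ng/ml replicate 2, against 6.11 to 8.66 CPM in SOX2-positive and 4.50 to 11.1 CPM in control libraries. CXCR5, a receptor of follicular lymphocytes, made up 23.3 CPM of the 37.2 and had no count in any other library; it was chosen after its values were seen. CMKLR1, the chemerin receptor, averaged 3.65 ± 1.37 CPM in SOX2-negative and 0.712 ± 0.272 CPM in SOX2-positive libraries (edgeR adjusted p = 0.003). GPR1, another chemerin receptor, had no count in SOX2-negative libraries and 0.539 CPM over the SOX2-positive ones, at least 14.9-fold lower against the same floor of 3 counts (edgeR adjusted p = 0.0092). Of 31 further ligand genes 12 were tested, with 0 higher and 5 lower (12.9% and 11.1% of all genes) and a median of -0.35. CXCL3, a neutrophil-attracting chemokine, averaged 0.294 ± 0.277 CPM in SOX2-negative and 3.96 ± 1.81 CPM in SOX2-positive libraries (edgeR adjusted p = 0.0017), and CCL26 averaged 0.0667 ± 0.101 CPM in SOX2-negative and 0.750 ± 0.297 CPM in SOX2-positive libraries (edgeR adjusted p = 0.037). The CCL26 call was lost in 6 of 8 cases with 1 library left out, with a replicate block (edgeR adjusted p = 0.051) and with identifiers apart. CXCR4 alone, at 71.9 CPM or more in every SOX2-negative library, was above the sum of the 23 other receptor genes there.

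Of 15 other receptors known from migrating cells, all were tested, with 7 higher and 3 lower (12.9% and 11.1% of all genes) and a median of 0.68. PDGFRA, a receptor of platelet-derived growth factors and itself in the mesoderm list, averaged 28.3 ± 24.0 CPM in SOX2-negative and 2.75 ± 0.685 CPM in SOX2-positive libraries (log2 fold change 3.03 ± 0.375, edgeR adjusted p = 2e-04). S1PR3, a sphingosine 1-phosphate receptor, averaged 67.4 ± 27.3 CPM in SOX2-negative and 11.4 ± 2.72 CPM in SOX2-positive libraries (2.58 ± 0.284, adjusted p = 9.1e-05 by edgeR). LPAR4, a lysophosphatidic acid receptor, and EDNRB, an endothelin receptor, were lower in SOX2-negative cells at -3.17 ± 0.553 and -1.87 ± 0.493 (edgeR adjusted p = 0.0019 and 0.019), and EDNRB lost its call in 3 of 8 cases with 1 library left out.

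APLNR and CXCR4 are also expressed in endothelial and blood cells, and markers of both were measured. The 10 endothelial genes summed to 62.5 to 87.7 CPM in 4 SOX2-negative libraries and 168 CPM in the other, 100 ng/ml replicate 2, against 50.1 to 67.4 CPM in SOX2-positive and 83.7 to 96.8 CPM in control libraries. Of the 9 tested, 5 were called higher in SOX2-negative cells and 0 lower, beside 12.9% higher and 11.1% lower over all genes. The defining genes CDH5 and PECAM1 averaged 3.14 ± 0.424 and 5.65 ± 0.511 CPM in SOX2-negative libraries and 0.374 ± 0.277 and 0.371 ± 0.250 CPM in SOX2-positive ones (SD, n = 4 each). Other genes of the list had lower averages in SOX2-negative libraries without passing the test, with TEK at 11.9 ± 6.02 CPM in SOX2-negative, 17.5 ± 4.92 CPM in SOX2-positive and 47.2 ± 14.7 CPM in control libraries (edgeR adjusted p = 0.12 between gates). CLDN5 averaged 0.264 CPM in SOX2-negative and 0.536 CPM in SOX2-positive libraries, and ERG 0.458 CPM in SOX2-negative and 0.599 CPM in SOX2-positive libraries. The 6 blood genes summed to 20.8 to 69.4 CPM in SOX2-negative, 1.44 to 2.65 CPM in SOX2-positive and 1.22 to 1.46 CPM in control libraries, of which RUNX1 made up 36.0 ± 21.9 CPM on average in SOX2-negative libraries. The part of such cells in the receptor levels was not tested.

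For each of the 6 genes, the 4 genes with the most similar profile were found by Pearson's r on log2 CPM over the 12 libraries, which mostly measures the difference between the gates. For APLNR these were SEZ6L (r = 0.995), GATA4 and ELMO1 (r = 0.994 each) and S100A10 (r = 0.989). GATA4, a transcription factor of endoderm and heart, averaged 130, 206 and 198 CPM at 100, 300 and 1000 ng/ml in SOX2-negative cells, 0.747, 1.62 and 3.55 CPM at these doses in SOX2-positive cells and 0.0732 CPM in control, so that it had the APLNR order of SOX2-negative, SOX2-positive and control. For CXCR4 they were RASSF10 (r = 0.990), FAM89A (0.989), PLXNA2 (0.988) and BMP2 (0.986). BMP2, a bone morphogenetic protein, averaged 239, 302 and 270 CPM at the 3 doses in SOX2-negative cells, 7.06, 5.51 and 6.36 CPM in SOX2-positive cells and 13.6 CPM in control, with SOX2-positive lowest as for CXCR4.

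The profile of CXCL12 was most like those of EPB41L4B (r = 0.989), PHC1 (0.988), LRRTM3 (0.987) and ITGA2 (0.986). PHC1, a Polycomb protein gene expressed in pluripotent cells, averaged 123, 142 and 151 CPM at 100, 300 and 1000 ng/ml in SOX2-negative cells, 827, 715 and 710.2 CPM in SOX2-positive cells and 343 CPM in control. For APELA they were UBE2G1 (r = 0.974), TERF1 and PDK3 (0.973 each) and FAR2P2 (0.972). TERF1, a telomere-binding protein gene abundant in pluripotent cells, averaged 64.7, 62.7 and 75.2 CPM in SOX2-negative cells, 706, 584 and 541 CPM in SOX2-positive cells and 199 CPM in control. For ACKR3 they were CCBE1 (r = 0.954), RHPN2 (0.952), PLXNA4 (0.947) and SLC35F3 (0.945), and for APLN no gene was above 0.883 (FO681492.1). Among the 6 genes themselves, r over the 12 libraries was 0.953 for APELA with CXCL12, -0.981 for CXCR4 with CXCL12, -0.710 for APLNR with APELA and 0.844 for APLNR with CXCR4.

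Promoter windows were searched for short motifs on both strands. The RefSeq table for GRCh38.p14 (250 bases before to 50 after each start) matched 4 of the 6 genes, with 3 windows for CXCR4 and 1 each for APELA, CXCL12 and APLN. APLNR and ACKR3 were not matched. The 250 bases before the first CXCR4 start are shown, at chr2:136118150-136118399 on the minus strand, as the receptor promoter in the table, with the motif match in capitals.
CXCR4: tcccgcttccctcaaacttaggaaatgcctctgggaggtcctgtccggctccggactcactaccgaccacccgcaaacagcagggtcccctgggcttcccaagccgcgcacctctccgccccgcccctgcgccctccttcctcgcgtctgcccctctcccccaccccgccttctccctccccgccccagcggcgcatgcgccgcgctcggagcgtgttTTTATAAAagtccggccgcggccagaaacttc
The capitals hold TTTATA and TATAAA, the 2 strands of 1 TATA motif, overlapping from -32 and -30 relative to the start, and 11.5% of the 35116 windows in the table have a match to it. The APELA window had CACGT at -235, the reverse strand of the hypoxia motif ACGTG, which 21.4% of windows hold. None of the windows of the 4 genes held the FOX motif GTAAACA (3.42% of all windows), the GATA motif AGATAA (10.3%), the SOX motif ATTGTT (10.1%), the TCF/LEF motif CTTTGAT (2.62%), the T-box motif GGTGTGA (3.45%) or the SMAD motif GTCTAGAC (0.202%). A match is only a match of letters, and its absence says nothing of the factor.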

How the data were processed

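Per the labels' protocols, 12 libraries of polyadenylated RNA were read from both ends by Illumina sequencing. The submitters' processing notes name Salmon and GRCh38, while the Salmon version, annotation and strand setting are not given in the sources used here. The deposited table gives estimated counts of each gene in each library, without scaling between libraries. Rows sharing a symbol were summed (37951 identifiers, 35940 symbols) and rounded to whole numbers.

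The test was the two-sided quasi-likelihood test of edgeR 4.0.16 (R 4.3.3) after TMM scaling and filterByExpr by group (minimum count 10, minimum total 15), which kept 17047 genes and all 6 members. P-values were adjusted by the Benjamini-Hochberg method over all genes, with a threshold of 0.05. One model had a mean for each of 7 groups, 5 residual degrees of freedom and no term for the repeat. The code was tested on simulated data. The alternatives were limma 3.58.1, DESeq2 1.42.0, plain totals, no filter, only the groups compared, identifiers apart, 3 doses averaged, a replicate block, and leaving out each library.

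The members and gene lists were chosen with earlier results of these data known. Replicate numbers come from the titles. They pair the libraries, because the series description has the second set as a biological repeat made separately. As a check, the deviations from the group means were correlated across genes between libraries of the same number, and r was -0.06 to 0.22 over 10 pairs of groups, above 0.1 in 5. To look for duplicate deposits of a library, the counts of each replicate pair were set against sampling noise, and no pair agreed within it (chi-square per degree of freedom 22.9 to 143). P-values measure the spread between repeats of 1 line. The named list genes are every called gene of a list with up to 4 calls between the gates, otherwise the 2 largest fold changes per direction. The profile neighbours are the 4 highest r among tested genes (log2 CPM, prior count 2).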

Additional observations from a re-analysis of the deposited data

Results flagged for a closer look

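APELA in 1000 ng/ml SOX2-negative replicate 2 was flagged because it lies far from the other libraries of its gate. It had 13.8 CPM, and the other 4 SOX2-negative libraries had 3.46 to 5.03 CPM. The gap to the nearest library is 0.848 of the gate's range, above the critical value of 0.71 for 5 libraries. These 5 libraries span 3 WNT3A doses, and the other library at 1000 ng/ml had 3.46 CPM. Of 12 such checks, 1 per gene and gate, this was the only one past the critical value, and chance flags about 1 in 20 groups.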

How the results depend on the processing

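Each group held 1 or 2 libraries, so calls against control could rest on 1 library, and levels under 1 CPM rest on few counts. Replicate numbers were also fitted as a block, which changed no call of the 6 genes and, of the list genes named between the gates, only that of CCL26 (edgeR adjusted p = 0.051). It gave 1 called gene between doses in SOX2-negative cells (0 without the block) and turned the CXCL12 dose difference there, -0.01, to 0.0048. That value also turned to 0.0236 with plain totals, 0.0618 with limma and 0.00364 as a slope on log10 dose. The cause was not tested.

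For SOX2-positive cells against control, edgeR called 719 genes at 100 ng/ml and 954 at 1000 ng/ml. DESeq2 called 1375 and 1614, no filter 1608 and 1799, and only the groups compared 2841 and 2188. For SOX2-negative cells at 100 ng/ml only the groups compared gave 1798 genes, against 3514. Between doses, with 0 genes by edgeR, SOX2-negative counts were 411 (DESeq2), 1551 (no filter), 1 (only the groups compared) and 32 (slope). SOX2-positive counts were 5 (DESeq2), 107 (no filter), 1 (identifiers apart) and 1 (slope). For the dose difference between gates they were 16 (DESeq2), 308 (no filter) and 1 (identifiers apart). Of the 6 genes, the number called for SOX2-positive cells at 1000 ng/ml was 1 with plain totals, limma or identifiers apart and 4 with no filter, against 2. With no filter 5 were called for SOX2-negative cells at 1000 ng/ml, against 3. Between doses, with 0 called, DESeq2 gave 1 in SOX2-positive cells, and no filter gave 2 in SOX2-negative cells, 1 in SOX2-positive cells and 1 for the difference.

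With 1 library left out, genes called between gates ran from 2638 (without SOX2-positive 100 ng/ml replicate 2) to 6835 (without SOX2-negative 100 ng/ml replicate 1), against 4085. Against control they ran from 1410 to 6993 at 100 ng/ml and 1397 to 2100 at 1000 ng/ml in SOX2-negative cells, against 3514 and 3028, and from 85 to 254 and 128 to 557 in SOX2-positive cells. Between doses in SOX2-negative cells they ran from 0 to 5739, and for the dose difference between gates from 0 to 3795. Of the 6 genes, 3 to 6 and 3 to 5 were called in SOX2-negative cells at these doses, and 1 to 2 and 1 in SOX2-positive cells. Ranges of log2 values that held both signs were all of values that had not passed. APLN ran from -0.239 to 0.747 between gates. For the SOX2-negative dose difference APLN ran from -1.02 to 1.3, CXCL12 from -0.447 to 0.586, CXCR4 from -0.214 to 0.313 and APELA from -0.302 to 1.7, and in SOX2-positive cells CXCL12 ran from -0.638 to 0.0708. For the dose difference between gates ACKR3 ran from -1.13 to 0.268, CXCL12 from -0.206 to 0.824 and APLN from -0.399 to 1.92.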
